A study of Mus musculus with 17 samples.

Results

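The genes described here are 10 genes that adipocytes express strongly, measured in RNA of the mouse colon. Adipocytes store triglyceride in a lipid droplet coated by perilipins, release fatty acids from it, and secrete hormones (adipokines) into the blood. The colon mucosa holds few of them, whereas fat of the mesentery lies against the outer wall of the gut. The genes were listed by name, and the list was drawn up with earlier results of these data known. They code for adipokines and a secreted protease (Adipoq, Cfd, Retn, Lep), proteins of the lipid droplet (Plin1, Plin4, Cidec), proteins that take up and carry fatty acids (Fabp4, Lpl) and a receptor for noradrenaline (Adrb3). All 10 are among the 37074 gene or transcript names on the array. They have 21 probes in all, and each gene is given by the probe with the highest mean in the submitters' table of log2 values.

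RNA came from the colon of male C57BL/6J wild-type (WT) and Pxr-/- mice on 17 Agilent arrays. Pxr-/- mice lack the pregnane X receptor (PXR), a nuclear receptor that senses drugs and steroids. Mice received PCN (pregnenolone 16α-carbonitrile, an agonist of rodent PXR) at 100 mg/kg per day in corn oil, or corn oil alone (CONT), by injection on 4 days, and were killed 6 h after the last injection. There were 4 arrays each for WT CONT, WT PCN and Pxr-/- PCN, and 5 for Pxr-/- CONT. WT mice were purchased at 6 weeks of age and Pxr-/- mice were bred by the authors, so genotype and colony cannot be told apart. Values are log2 of the median spot signal after quantile normalization between arrays.

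Several arrays stood apart, and this bears on every result. WT PCN 4 and Pxr-/- PCN 2 were nearly the same (SD of the difference over 38646 probes 0.172), and so were WT PCN 3 and Pxr-/- CONT 2 (0.198). The other 134 pairs of arrays had an SD of at least 0.297. Both near-identical pairs join arrays with different labels, so results are also given without these 4 arrays. The mean of 8 pancreas genes was 15.23 or more on WT CONT 4, WT PCN 3 and Pxr-/- CONT 2 and 10.54 on WT PCN 1, against at most 5.86 on the others. The mean of 8 liver genes was 10.55 on WT CONT 5, 8.77 on WT PCN 1 and 8.47 on WT PCN 2, and between 6.43 and 7.33 elsewhere. Colonocyte genes were high on all arrays, with a list mean between 15.23 and 15.79. Nr1i2, which encodes PXR, did not match the labels on every array. Outside the near-identical pairs its log2 signal was 11.85 to 12.44 on the 6 WT arrays and 10.39 to 11.66 on 6 of the 7 Pxr-/- arrays, with 11.93 on Pxr-/- PCN 3. The near-identical arrays labelled WT PCN 3 and WT PCN 4 had 11.10 and 11.15, below every other WT array and close to their partners labelled Pxr-/- CONT 2 (11.13) and Pxr-/- PCN 2 (10.95). The level of the targeted gene thus goes against the label of 2 of the 4 WT PCN arrays. On Pxr-/- PCN 3 the level of 11.93 lies within the range of the 6 WT arrays. The lowest of these (11.85) is, however, close to 11.66, the next highest Pxr-/- value. Nr1i2 still read 10.39 or more on every array labelled Pxr-/-, so its level alone cannot settle a label. Groups are named here as the labels give them, and every direction that involves WT PCN or Pxr-/- PCN rests on these labels. So does every direction that involves Pxr-/- CONT, which holds the near-identical array Pxr-/- CONT 2.

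The measurement rests on probes of 60 bases. Those of Adipoq, Retn and Lep are shown because the first 2 genes varied widely between arrays while the third hardly varied. According to the array files (build mm9, plus strand for all 3), the Adipoq probe lies at chr16:23157576-23157635, the Retn probe at chr8:3657312-3657371 and the Lep probe at chr6:29020910-29020969.
Adipoq: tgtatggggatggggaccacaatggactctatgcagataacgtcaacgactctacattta
Retn: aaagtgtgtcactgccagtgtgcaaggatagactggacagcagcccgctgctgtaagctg
Lep: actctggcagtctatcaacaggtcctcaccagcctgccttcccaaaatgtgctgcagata

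Adipoq encodes adiponectin, a hormone made by adipocytes. Its log2 signal was 9.01, 9.37, 10.97 and 10.97 on WT CONT 2 to 5, 9.24, 9.35, 7.54 and 7.05 on WT PCN 1 to 4, 8.22, 7.59, 7.88, 10.15 and 8.14 on Pxr-/- CONT 1 to 5, and 7.76, 8.16, 5.69 and 7.58 on Pxr-/- PCN 1 to 4. WT CONT 4, WT CONT 5 and Pxr-/- CONT 4 were the 3 highest arrays. From the lowest to the highest array the normalized signal rose 38.7-fold, and 97.3-fold with the scanner's background-subtracted signal. The single Adipoq spot on Pxr-/- PCN 2 read 296 units before normalization, against 128.5 units on its near-identical partner WT PCN 4. After normalization the 2 arrays differed by 1.11 on the log2 scale for Adipoq, and by at most 0.109 for the other 9 genes.

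Cfd encodes adipsin, a complement protease that adipocytes secrete. Its log2 signal was 12.55, 13.13, 14.52 and 14.89 on WT CONT 2 to 5, 13.04, 12.61, 10.70 and 10.18 on WT PCN 1 to 4, 11.45, 10.83, 10.91, 13.64 and 11.02 on Pxr-/- CONT 1 to 5, and 11.68, 10.15, 8.68 and 10.36 on Pxr-/- PCN 1 to 4. This was the widest range of the 10 genes, 6.21 on the log2 scale or 74.2-fold, and the same 3 arrays were highest as for Adipoq. A second Cfd probe followed the first closely (r = 0.998 over 17 arrays).

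Retn encodes resistin, another adipokine. Its log2 signal was 8.39, 9.20, 10.57 and 10.56 on WT CONT 2 to 5, 9.11, 8.58, 7.42 and 6.80 on WT PCN 1 to 4, 8.19, 7.28, 8.02, 9.39 and 7.98 on Pxr-/- CONT 1 to 5, and 7.93, 6.91, 7.33 and 6.92 on Pxr-/- PCN 1 to 4. Retn thus peaked on the same arrays as Adipoq and Cfd, with a range of 13.6-fold.

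Plin1 encodes perilipin 1, which coats the lipid droplet of adipocytes and controls access of lipases to it. Its log2 signal was 6.57, 6.91, 8.07 and 8.21 on WT CONT 2 to 5, 6.26, 6.68, 5.84 and 5.43 on WT PCN 1 to 4, 5.99, 5.66, 5.92, 7.30 and 6.23 on Pxr-/- CONT 1 to 5, and 5.92, 5.44, 5.01 and 5.45 on Pxr-/- PCN 1 to 4. Plin1 was the dimmest gene of the set, and its probe was not well above the background on WT PCN 4, Pxr-/- PCN 2 and Pxr-/- PCN 3, where its level is only a bound. On the other 14 arrays the normalized signal ranged 6.76-fold, from Pxr-/- PCN 4 to WT CONT 5.

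Plin4 and Cidec encode other droplet proteins. Plin4 lay between 10.02 and 12.08 and Cidec between 8.69 and 12.01 on the log2 scale, with the lowest value on Pxr-/- PCN 3 and the highest on WT CONT 5 for both genes. Fabp4, a fatty acid carrier that endothelium and macrophages also express, ranged only from 11.74 to 13.45. Lpl, the lipase that frees fatty acids from circulating triglyceride and is also made by muscle and macrophages, ranged from 9.47 to 11.25, with its highest value on WT PCN 2. Adrb3, the β3 adrenergic receptor, ranged from 8.03 on Pxr-/- PCN 4 to 9.74 on WT CONT 5. WT CONT 4 was among the 3 highest arrays for 9 of the 10 genes, and WT CONT 5 and Pxr-/- CONT 4 for 8 genes each.

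Lep, which encodes leptin, differed from the other genes. Its log2 signal was 6.91, 7.18, 7.02 and 6.92 on WT CONT 2 to 5, 6.91, 7.19, 7.20 and 7.14 on WT PCN 1 to 4, 6.66, 7.11, 7.11, 7.21 and 7.12 on Pxr-/- CONT 1 to 5, and 6.94, 7.12, 7.06 and 7.11 on Pxr-/- PCN 1 to 4. The whole range was 1.46-fold, with raw spot signals from 93 to 154 units on every array, although the probe was scored well above the background on all 17. Lep has a single probe on the array, so its flat signal could not be compared with a second one.

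**Figure D1:**
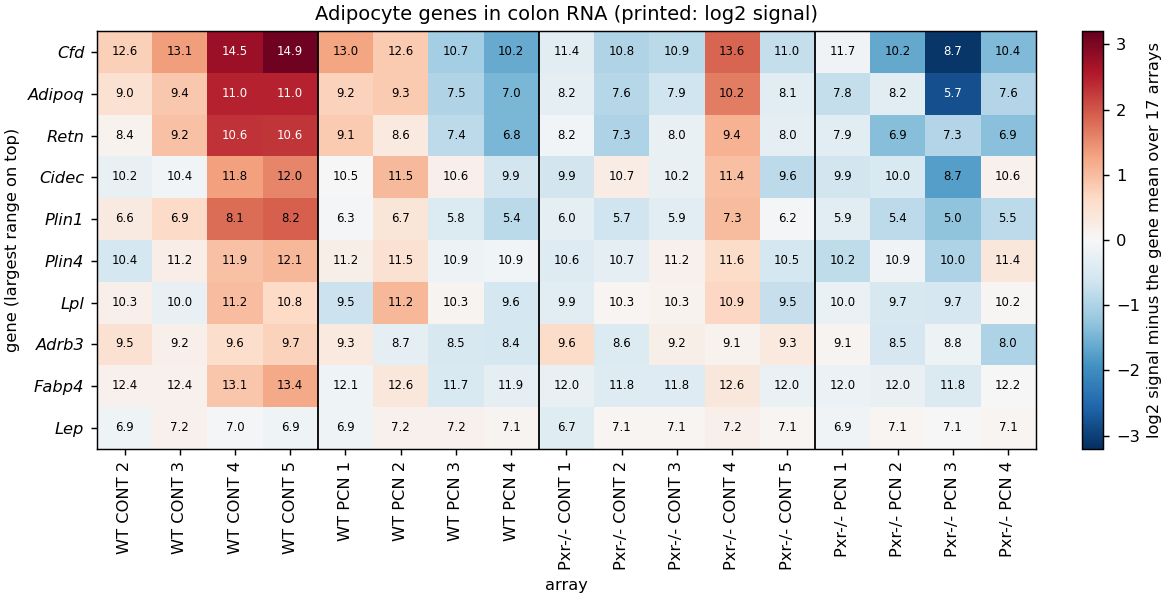
Log2 signal of the 10 adipocyte genes (rows) on the 17 arrays (columns, lines between groups). Colour gives the signal minus the mean of the gene over all arrays and the printed number the log2 signal. WT CONT 4, WT CONT 5 and Pxr-/- CONT 4 are red in most rows, Pxr-/- PCN 3 has the lowest value of 5 genes, and Lep stays between 6.66 and 7.21.

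Spread within groups was large for these genes. After fitting the group means and the wash bath, the residual SD on the log2 scale was 1.18 for Cfd, 1.07 for Adipoq and 0.850 for Retn. The median over all 38703 probes tested was 0.168. Of the 10 genes, 7 exceeded the 95th percentile of all probes, and Lep, with 0.139, lay at the 34.1st percentile.

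Most of the adipocyte genes varied together from array to array. Across 17 arrays, the median Pearson correlation of the 45 pairs of genes was 0.695, and the median Spearman correlation was 0.586. The 6 pairs among Adipoq, Cfd, Plin1 and Retn ranged from 0.902 to 0.969, and Plin1 with Fabp4, outside this set, had 0.917. The set was picked out after the values were seen, so its further values below describe a chosen set. When the 4 near-identical arrays were left out, the 6 pairs of the set ranged from 0.918 to 0.983 and the median of all pairs was 0.722. These points share the normalization and include 4 groups. On residuals after group means and bath were removed, the median was 0.610 over all pairs and 0.889 over these 6 pairs. Leaving out, for each pair, the 2 arrays farthest from the median of its first gene gave a median of 0.518 over all pairs and 0.911 over the 6 pairs. Dropping extreme arrays narrows the range of a gene, which by itself lowers r.

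The other genes followed less tightly. Among the 8 genes without Lep and Adrb3, all 28 pairs were positive, from 0.581 (Retn with Lpl) to 0.969 (Adipoq with Cfd). Cidec was closest to Plin4 (r = 0.892) and to Lpl (r = 0.850). Adrb3 correlated with Retn (r = 0.772) and Plin1 (r = 0.670), yet with Plin4, Cidec and Lpl only between 0.147 and 0.208. Lep correlated with no other gene above 0.197, and with Adrb3 at -0.606.

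**Figure D2:**
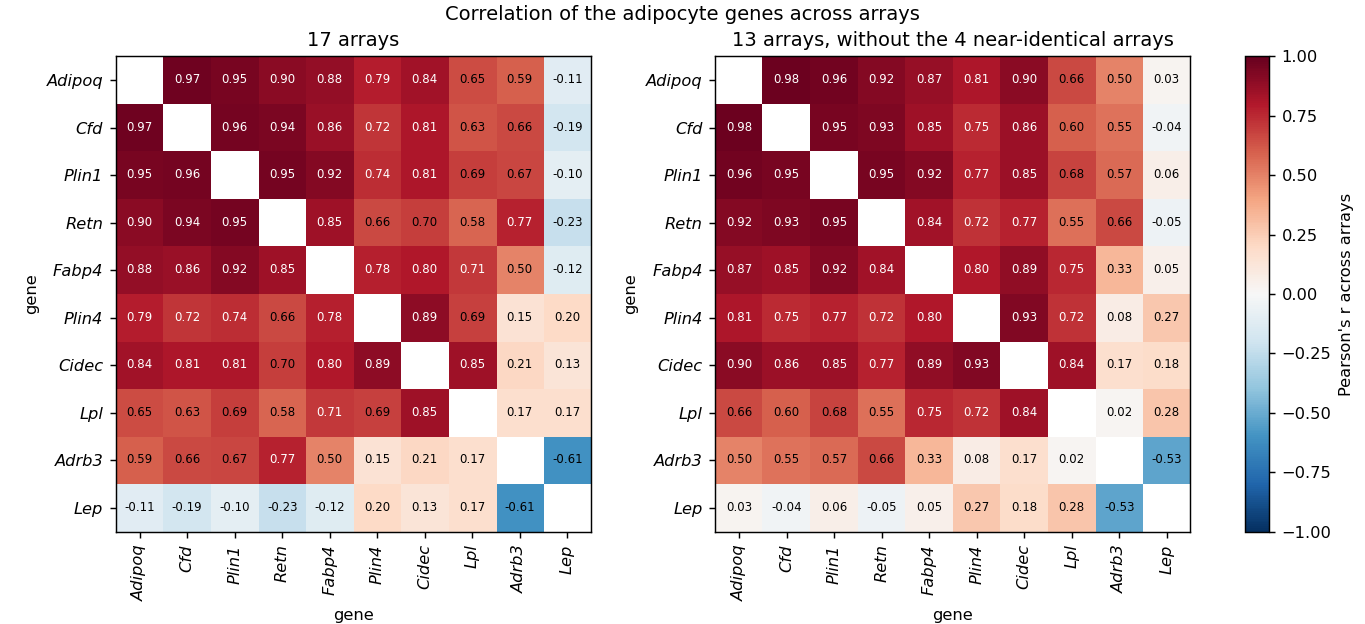
Pearson's r of each pair of adipocyte genes across all 17 arrays (left) and across the 13 arrays without the 4 near-identical ones (right). Adipoq, Cfd, Plin1 and Retn form a block of 0.902 to 0.969 on the left and 0.918 to 0.983 on the right, and the row of Lep is near 0 or below with most genes.

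Alternative probes gave similar profiles for most of the genes that have more than 1 probe. Adipoq, Plin4, Lep and Cidec have a single probe each, so their profiles could not be compared in this way. The r with the chosen probe was 0.991 for the second Fabp4 probe, 0.964 for that of Retn, 0.753 for that of Adrb3, and 0.889 and 0.840 for those of Plin1. The 5 other Lpl probes ranged from -0.313 to 0.971. The probe at -0.313 is annotated to another transcript model of the locus, and it entered only the average over all probes of a gene.

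Promoters of 7 of the 10 genes, 8 in all, were matched by symbol in RefSeq (GRCm38.p6, from 250 bases before to 50 after the start). Adipocyte differentiation is driven by PPARγ, which binds direct repeats of AGGTCA, and by C/EBP factors. On both strands, the C/EBP-type motif TTGCNNAA matched in the promoters of Lep, Plin1 and Cidec, and in 10.8% of all 32851 promoters. The repeat AGGTCANAGGTCA was found in 0.0396% of all promoters and the single unit AGGTCA, which the repeat contains, in 16.3%. Neither had a match in the 7 genes. The 100 bases before the start are shown for Plin1, which varied with Adipoq, and for Lep, which did not. Capitals mark the C/EBP-type match, whose first base is 58 bases before the start in Plin1 (chr7:79732777-79732876, minus strand) and 55 bases before it in Lep (chr6:29060121-29060220, plus strand).
Plin1: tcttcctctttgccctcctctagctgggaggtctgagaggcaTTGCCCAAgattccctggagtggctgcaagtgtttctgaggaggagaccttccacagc
Lep: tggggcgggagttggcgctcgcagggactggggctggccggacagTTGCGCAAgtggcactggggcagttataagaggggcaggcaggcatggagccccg

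A mean of the 10 genes, each centred on its own mean over the arrays, was used to describe the arrays. This mean level was 0.15, 0.41, 1.39 and 1.49 on WT CONT 2 to 5, 0.23, 0.51, -0.41 and -0.74 on WT PCN 1 to 4, -0.24, -0.43, -0.23, 0.85 and -0.34 on Pxr-/- CONT 1 to 5, and -0.34, -0.60, -1.21 and -0.49 on Pxr-/- PCN 1 to 4. Every WT CONT array was above every Pxr-/- PCN array, whereas all other pairs of groups overlapped. The groups of that pair differ in both genotype and PCN, and the share of all probes that separate them was not computed. In a bulk sample, fewer adipocytes and less of these transcripts per adipocyte cannot be told apart. The arrays of WT PCN fell into a higher pair (1 and 2) and a lower pair (3 and 4), and the lower pair are both among the 4 near-identical arrays. Group means of the single genes followed the same order, with WT CONT highest for 9 of 10 genes and Pxr-/- PCN lowest for 9 of 10.

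**Figure D3:**
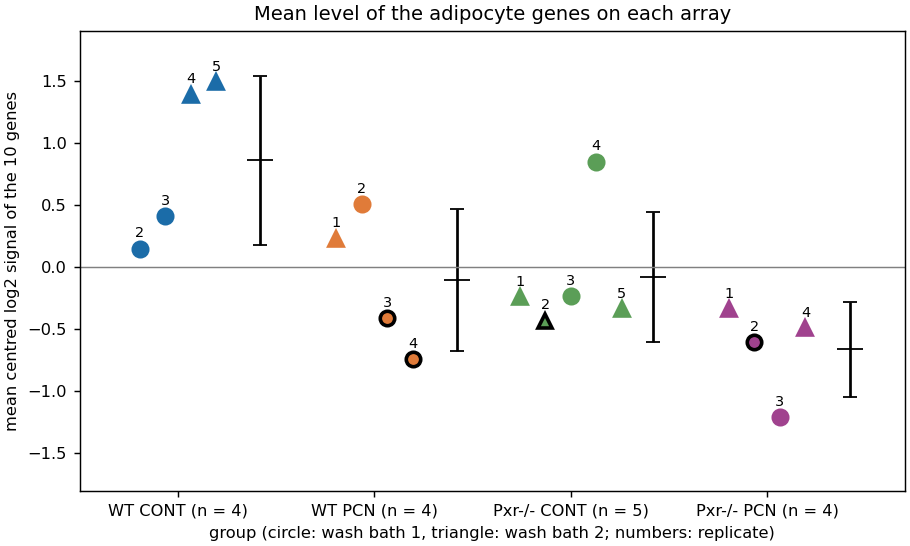
Mean centred log2 signal of the 10 adipocyte genes on each array, by group, with the replicate number beside each point, the wash bath as the symbol and a black edge on the 4 near-identical arrays. Bars show the mean and SD of each group. WT CONT 4 and 5 are highest at 1.39 and 1.49, and WT PCN 3 and 4 lie below the other WT arrays.

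Mean levels of most adipocyte genes were lower in WT PCN than in WT CONT, but no gene passed the test. WT PCN was compared with WT CONT to ask what PCN changes where PXR is present, with limma and Benjamini-Hochberg adjustment over all probes. A gene was called when its fold change exceeded 1.5 and its FDR did not exceed 0.05. Of the 10 genes, 0 were called, as were 0% of all probes. The difference was below 0 for 9 genes, with a median of -0.69 on the log2 scale, against -0.00 over all probes. The log2 difference was -1.92 ± 0.77 (SE) for Cfd, -1.64 ± 0.70 for Adipoq, -1.57 ± 0.56 for Retn and -1.30 ± 0.40 for Plin1. Lep differed by 0.07 (95% confidence interval -0.15 to 0.28). The unadjusted p was under 0.05 for 6 genes (Adipoq, Plin1, Cfd, Retn, Fabp4 and Adrb3, all lower), against 4.66% of all probes. Most of these genes varied together across arrays, so they are not 6 independent results. The adjusted p from limma was at least 0.956 for every gene. No gene had groups that did not overlap, against 2.64% of all probes.

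These differences depended on few arrays, among them both arrays labelled WT PCN whose Nr1i2 level lay within the range of Pxr-/- arrays. Without the 4 near-identical arrays, which leaves 2 WT PCN arrays, the log2 difference was -0.95 for Cfd, -0.78 for Adipoq, -0.83 for Retn and -0.97 for Plin1, and 0 genes had an unadjusted p under 0.05. Leaving out WT CONT 4 and 5, a choice made after seeing the data, gave a median of -0.46 and a direction above 0 for Plin4, Cidec and Lpl (0.33, 0.34 and 0.11). Within wash bath 1 the median difference was -0.52 and 6 of 10 genes were lower, with Plin4, Cidec and Lpl above 0 (0.26, 0.37 and 0.24). Within wash bath 2, which holds a single WT PCN array and allows no test, the median was -1.44.

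In Pxr-/- mice, the difference with PCN was below 0 for 9 of the 10 genes and 0 genes were called, against 0.00517% of all probes (2 probes). Here the comparison asks what PCN changes without PXR. The median log2 difference was -0.54, against 0.01 over all probes. Cfd differed by -1.27 ± 0.72 (SE), Adipoq by -1.04 ± 0.66, Retn by -0.85 ± 0.52, Plin1 by -0.73 ± 0.38 and Lep by 0.00 ± 0.10. An unadjusted p under 0.05 was obtained for Adrb3 alone (log2 difference -0.53 ± 0.23, limma adjusted p = 0.651), against 7.35% of all probes. All 10 genes had overlapping groups, and 2.8% of all probes did not.

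Pxr-/- CONT 4 carried much of this difference, since without it Cfd differed by -0.48 and Adipoq by -0.41. On the PCN side, Pxr-/- PCN 3 had the lowest mean level of the 10 genes (-1.21), and its Nr1i2 level lay within the range of WT arrays. Without the Adipoq spot of Pxr-/- PCN 2, left out after seeing the data, Adipoq differed by -1.44. When the 4 near-identical arrays were left out, the median was -0.66 and Adipoq differed by -1.70. The median was -1.15 within wash bath 1, where all 10 genes were lower and 6 had an unadjusted p under 0.05 (limma adjusted p at least 0.584). Within wash bath 2 it was -0.01 and 5 genes were lower.

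Without PCN, the Pxr-/- mean was below the WT mean for 9 of the 10 genes, and 0 genes were called, as were 0% of all probes. This comparison shares its WT CONT arrays with that of PCN in WT. The log2 difference, Pxr-/- CONT minus WT CONT, was -2.29 ± 0.72 (SE) for Cfd, -1.74 ± 0.66 for Adipoq, -1.56 ± 0.52 for Retn, -1.25 ± 0.38 for Plin1 and -0.80 ± 0.23 for Fabp4. These 5 genes had an unadjusted p under 0.05, against 12.7% of all probes, with limma adjusted p-values from 0.240 to 0.322. They varied together across arrays, so they are not 5 independent results. Plin4, Cidec, Lpl and Adrb3 differed by -0.35 to -0.76, and Lep by 0.05 ± 0.10. The groups overlapped for all 10 genes, and did not for 5.4% of all probes.

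The size of the genotype difference changed with the wash bath and with single arrays. The median over the genes was -0.78 on all arrays. Within wash bath 1 it was -0.11, with 6 of 10 genes lower and Plin4, Cidec and Lpl at 0.53, 0.53 and 0.44. Within wash bath 2, which holds WT CONT 4 and 5, it was -1.62, with all 10 genes lower and 8 with an unadjusted p under 0.05 (limma adjusted p at least 0.0829). Without these 2 arrays it was -0.29, and without Pxr-/- CONT 4 it was -1.08. Without the 4 near-identical arrays it was -0.77, with Cfd at -2.02 and Adipoq at -1.48.

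The effect of PCN did not differ detectably between genotypes for any of the 10 genes. In the test of the difference itself (Pxr-/- minus WT), 0 genes were called, with 0% of all probes, and 0 had an unadjusted p under 0.05, with 5.38% of all probes. The difference was 0.65 (95% confidence interval -1.58 to 2.89) for Cfd, 0.60 (-1.44 to 2.63) for Adipoq and 0.66 (-0.04 to 1.37) for Fabp4. Without the 4 near-identical arrays the sign turned for Cfd (-0.71) and Adipoq (-0.92), and within wash bath 1 the difference was below 0 for 9 of the 10 genes. The intervals are wide enough to hold effects of more than 2-fold in either direction for Cfd and Adipoq.

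**Figure D4:**
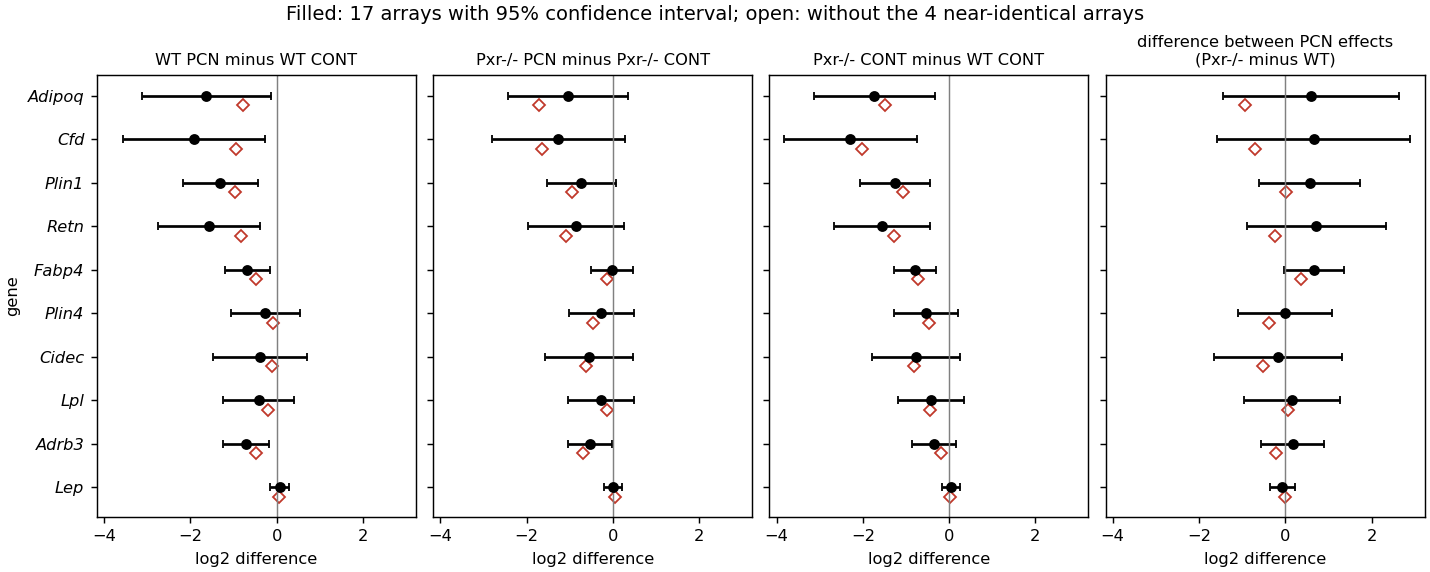
Log2 difference of each adipocyte gene in the 4 comparisons. Filled points give the fit on 17 arrays with its 95% confidence interval and open diamonds the fit without the 4 near-identical arrays. For PCN in WT, the diamonds of Cfd and Adipoq lie at -0.95 and -0.78, nearer to 0 than the points at -1.92 and -1.64.

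Other adipocyte genes behaved less uniformly. Of 32 further genes of adipocytes and lipid storage, 0 were called in each of the 4 comparisons. The median log2 difference of this list was -0.09 between genotypes without PCN, -0.14 with PCN in WT and -0.08 with PCN in Pxr-/-. The 8 genes with the highest signal serve lipid synthesis, lipid breakdown or glucose metabolism, several of them also in other cells. Their r with the mean level of the 10 genes was 0.40 for Fasn (fatty acid synthase), 0.04 for Acly, -0.25 for Agpat2, 0.32 for Pnpla2 (adipose triglyceride lipase), 0.15 for Pck1, 0.14 for Pparg, 0.45 for Dgat2 and 0.06 for Slc2a4 (the glucose carrier GLUT4). An r over 0.7 was found for 5 of the 32 genes, or 15.6%, against 0.463% of all probes. These were Car3, Mrap, Adig, Scd1 and Orm1, named after their values were seen. Orm1 had its highest log2 signal (9.43) on WT CONT 5, the array rich in liver transcripts, and at most 6.96 elsewhere. It was well above the background on only 9 arrays. Car3 encodes a carbonic anhydrase abundant in fat, and its log2 signal ranged from 6.76 to 12.18. Over the 32 genes the median r was 0.39, and 4 genes were below 0, against a median of -0.03 over all probes. The mean of the list had an r of 0.965 with the level of the 10 genes, but genes with a wide range weigh most in such a mean.

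Over all probes, the non-member genes whose profile was most like that of the 10 genes were Car3 (r = 0.966 over 17 arrays), Mrap (0.946), Cyp2e1 (0.936), Fcor (0.921), Slc7a10 (0.919), Glb1l2 (0.914), Adig (0.890), Lrrn4 (0.880), 4931408D14Rik (0.865) and Kcnab1 (0.856). Without the 4 near-identical arrays these values lay between 0.825 and 0.971. Cyp2e1, a cytochrome P450 of liver and fat, had its highest log2 signal (12.13) on WT CONT 5, the array rich in liver transcripts, and 10.74 on WT CONT 4. Mrap encodes an accessory protein of the melanocortin receptor, and ranged from 5.27 to 8.15.

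Mesothelial genes moved with the adipocyte genes. Mesothelium is the cell layer that covers the outside of the gut and the mesentery. Its 7 measured markers (Msln, Upk3b, Upk1b, Lrrn4, Wt1, Gpm6a and Bnc1) had a list mean of 8.0 to 8.47 on 6 arrays (WT CONT 2, 4 and 5, WT PCN 1 and 2, Pxr-/- CONT 4), where the mean level of the adipocyte genes was 0.15 to 1.49. On the other 11 arrays the mesothelial mean was 6.30 to 7.23 and the adipocyte level -1.21 to 0.41. The exception to this order was WT CONT 3, with an adipocyte level of 0.41 and a mesothelial mean of 6.60. The r of the 2 levels was 0.812 over all 17 arrays, 0.570 within the 6 and 0.261 within the 11. By group, the mesothelial mean ranged from 6.60 to 8.34 in WT CONT, 6.36 to 8.22 in WT PCN, 6.30 to 8.47 in Pxr-/- CONT and 6.42 to 7.17 in Pxr-/- PCN. Lrrn4 had the highest r with the adipocyte level (0.880) and was well above the background on 13 arrays. How far the amount of attached fat and serosa accounts for the differences between groups was not tested.

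The list means of other tissues had a lower r with the adipocyte level over 17 arrays than the mesothelial mean, 0.552 for blood, 0.520 for liver and 0.200 for pancreas (0.465 without the 4 near-identical arrays). The pancreas mean was 17.66 on WT CONT 4 but 5.68 on WT CONT 5 and 5.62 on Pxr-/- CONT 4, so the 3 arrays with the highest adipocyte levels did not share it. WT PCN 3 and Pxr-/- CONT 2, with pancreas means of 15.28 and 15.23, had adipocyte levels of -0.41 and -0.43. The liver mean was 10.55 on WT CONT 5, 6.93 on WT CONT 4 and 6.56 on Pxr-/- CONT 4. Haemoglobin and Alas2, markers of blood, had their highest mean on Pxr-/- CONT 4 (13.42, against 10.25 to 12.17 elsewhere). Ucp1, the defining gene of brown fat, was not well above the background on any array, while the brown fat list had a mean of 7.17 to 7.5.

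The list means of cells that surround adipocytes or line vessels varied little. A mean over many genes narrows the range, and that of the further adipocyte genes was 9.67 to 10.33. The list mean of 8 endothelial genes ranged from 8.90 to 9.20 (r = 0.569 with the adipocyte level over 17 arrays) and that of 8 fat progenitor and fibroblast genes from 11.98 to 12.38 (r = 0.175). The r was 0.351 for smooth muscle, 0.526 for enteric neurons, 0.305 for macrophages, -0.05 for B cells and lymph node, 0.281 for skeletal muscle, 0.361 for brown fat and 0.342 for colonocytes. The B cell and lymph node mean ranged widely, from 6.73 to 10.14. Without the 4 near-identical arrays r was higher for smooth muscle (0.622), enteric neurons (0.591), skeletal muscle (0.476) and colonocytes (0.391). It was lower for endothelium (0.432), fat progenitors and fibroblasts (-0.133), macrophages (0.191), brown fat (0.211) and B cells and lymph node (-0.109). As measures of array quality, 61.0% to 69.7% of probes were well above the background (r = 0.288 with the adipocyte level). The median background was 20 to 28 units (r = 0.531). The part of these measures in the group differences was not tested.

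**Figure D5:**
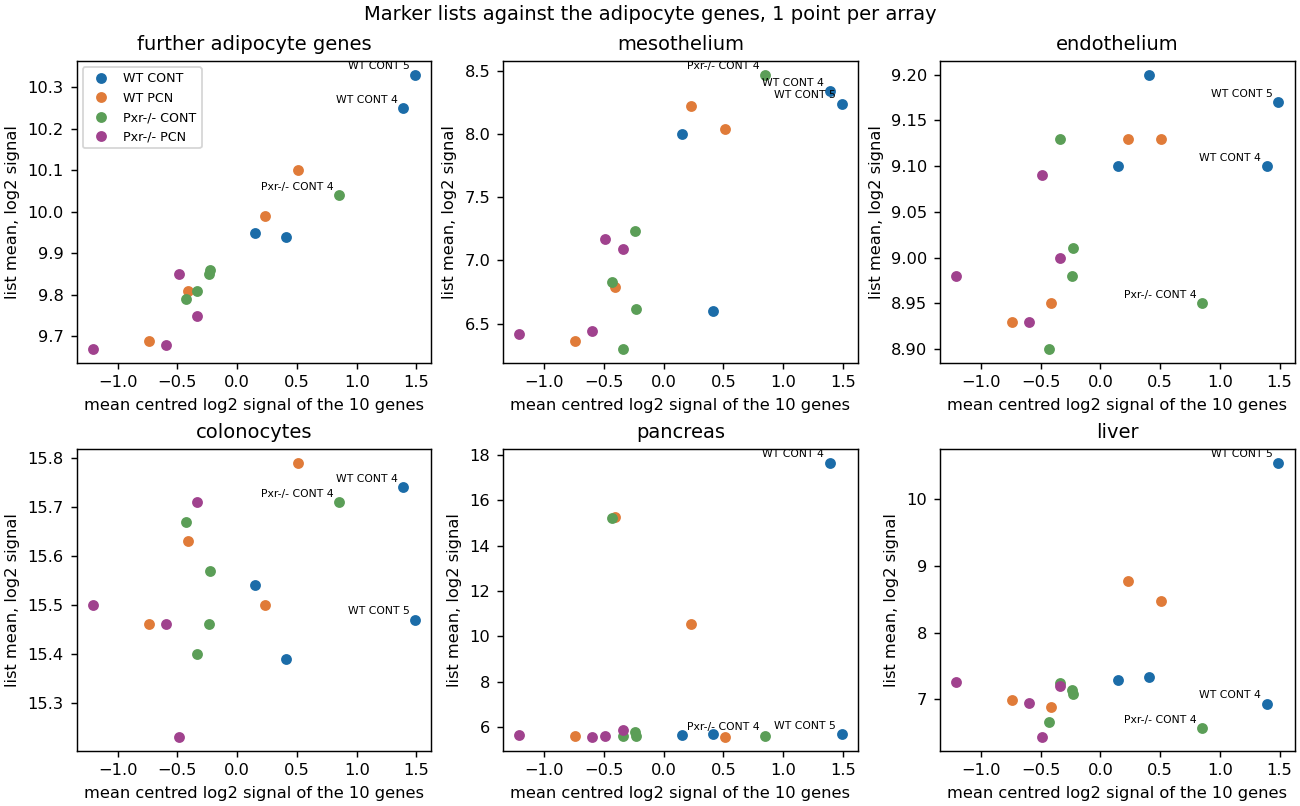
Mean log2 signal of 6 marker lists (vertical axes, each with its own scale) against the mean centred log2 signal of the 10 adipocyte genes, with 1 point per array coloured by group. Further adipocyte genes rise along the axis, mesothelial genes form a higher cluster of 6 arrays and a lower one of 11, and the pancreas and liver lists are high on a few arrays only.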

How the data were processed

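RNA was hybridized to 1-colour Agilent arrays, on 8 slides by the barcodes in the scanner output and in 2 wash baths as the labels give them. The authors deposited scanner output of Agilent Feature Extraction 10.10.1.1, with the median intensity of each spot, its background intensity and its background-subtracted intensity, not normalized between arrays. A second deposited file holds the authors' log2 values for 36695 probes, corrected for the wash bath per their methods. Only colon arrays were analysed here. The article describes liver.

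The 59305 non-control spots, without those marked as outliers, were put on the log2 scale and quantile-normalized in place of the authors' CrossNorm method, giving 56605 probes. Those that 4 or more arrays measured well above background (38703, including the chosen probe of all 10 genes) were fitted with group and wash bath in limma 3.58.1 (R 4.3.3), with Benjamini-Hochberg adjustment. The fit was tested on simulated data. Probe files give no depth, so the number of arrays limits the precision, and no spot was saturated. P-values treat each array as a separate mouse.

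The genes and marker lists were chosen with earlier results of these data known. The text names all 10 genes, of 32 further adipocyte genes every called one and the 8 with the highest signal, and the 10 genes most like the mean of the 10. Other genes are named as defining markers. Alternatives were the submitters' log2 values, the background-subtracted signal minus the 75th percentile, normexp with an offset of 50, other filters, blocks and weights, each array left out and all probes of a gene averaged.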

Additional observations from a re-analysis of the deposited data

Results flagged for a closer look

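In Pxr-/- CONT, replicate 4 stood far above the other 4 arrays for Adipoq (10.15), Cfd (13.64), Fabp4 (12.59) and the mean level of the 10 genes (0.85). In the same group, Lep was far below the others on replicate 1 (6.66). Chance marks about 1 in 20 groups in this way, and 5 of 44 were marked, of which 4 concern 1 array and genes that vary together. Pxr-/- CONT 4 also had the highest means of mesothelial (8.47) and blood genes (13.42). The part of either in its adipocyte level was not tested.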

How the results depend on the processing

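Under the alternatives that gave a test, no adipocyte gene was called in any comparison, with 1 exception. No test was made of PCN in WT and the interaction within wash bath 2, which holds 1 WT PCN array. With array weights, Fabp4 was called for genotype (1 gene, log2 difference -0.81, adjusted p 0.0446), when 446 probes were called in all. Same-numbered arrays of different groups did not all deviate together (22 pairs, r from -0.334 to 0.493), and a replicate block changed no call, with medians of -0.79 (PCN in WT), -0.54 (PCN in Pxr-/-), -0.72 (genotype) and 0.54 (interaction). The median difference moved by more than the spread of arrays within wash bath 1 (-1.15 for PCN in Pxr-/-, -0.11 for genotype, -0.76 for the interaction), within wash bath 2 (-1.44 for PCN in WT, -1.62 for genotype, 1.39 for the interaction) and, for the interaction, without the 4 near-identical arrays (-0.23, against 0.37). With each array left out in turn it ranged from -0.81 to -0.59 for PCN in WT, -0.64 to -0.26 for PCN in Pxr-/-, -1.08 to -0.54 for genotype and 0.16 to 0.65 for the interaction. The median correlation was 0.586 by Spearman and 0.629 to 0.741 with each array left out. Why these values moved was not tested.

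Signs turned for single genes. Without both WT CONT 4 and 5, a choice made after seeing the data, Plin4, Cidec and Lpl turned for PCN in WT (0.33, 0.34, 0.11) and genotype (0.18, 0.10, 0.22), Lep for PCN in Pxr-/- (-0.0020), and Adipoq, Plin1, Retn and Lpl for the interaction (-0.15, -0.0945, -0.041, -0.41). Within wash bath 1, Plin4, Cidec and Lpl turned for PCN in WT (0.26, 0.37, 0.24) and genotype (0.53, 0.53, 0.44), Lep for PCN in Pxr-/- (-0.069), and Adipoq, Plin1, Cfd, Retn, Fabp4 and Lpl for the interaction (-0.88, -0.63, -1.19, -0.39, -0.042, -1.15). Within wash bath 2, Plin4, Cidec, Fabp4 and Lpl turned for PCN in Pxr-/- (0.18, 0.17, 0.19, 0.24), and Lep for genotype (-0.0058) and, untested, for PCN in WT (-0.064) and the interaction (0.12), as did Plin4, Cidec and Adrb3 for the interaction (1.00, 1.58, -0.26). Without the 4 near-identical arrays, Adipoq, Cfd, Retn and Adrb3 turned for the interaction (-0.92, -0.71, -0.25, -0.21). For PCN in Pxr-/-, Fabp4 turned with the replicate block (0.030) and array weights (0.039), and Lep with a fixed slide block (-0.079) and array weights (-0.0022). For the interaction, Plin4 turned without the bath term (0.020) and with a random slide block (0.021), Lpl with a fixed slide block (-0.10) and Cidec with array weights (0.0098). With 1 array left out, Lep ranged from -0.0049 to 0.11 for PCN in WT, -0.080 to 0.035 for PCN in Pxr-/-, -0.011 to 0.13 for genotype and -0.16 to 0.0021 for the interaction, Fabp4 from -0.10 to 0.18 for PCN in Pxr-/-, and, for the interaction, Plin4 from -0.23 to 0.35, Cidec from -0.42 to 0.18, Lpl from -0.13 to 0.50 and Adrb3 from -0.022 to 0.40. Plin1 lies close to the background, and on 3 arrays its level is only a bound.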
